A study of Sus scrofa domesticus with 6 samples.

Results

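The secretory route of the cell and the enzymes that finish collagen were examined in the mandibular condyle of miniature pig embryos. The genes were taken by name: components of endoplasmic reticulum (ER) entry, of the COPII and COPI vesicle coats, of cargo retrieval and ER folding, the hydroxylases and chaperone of procollagen, the lysyl oxidases, the procollagen proteinase enhancers and the transcription factors CREB3L1 and CREB3L2. The name pattern found 74 genes among 25322 gene rows, each on 1 row, and 72 of them passed the filter on low counts, as did 15022 rows of the whole table. TMED9, with 4 to 13 counts per library, and SEC14L3, with 1 count in all, did not pass and were not tested. Some genes of the route, such as P4HB and SEC24D, are not analysed here. The condyle, the cartilage-capped end of the lower jaw, was sampled at 45 and 85 days, and the series follows its ossification. Each age has 3 RNA-seq libraries from pigs labelled Sus scrofa domesticus. All are labelled as cartilage, with chondrocytes and osteocytes as the source. The protocol describes ground tissue, and no drug, diet or genotype is given for either age. The labels do not say whether libraries are separate animals or pools. Every p-value thus sets the difference between ages only against the spread of these libraries, which may be technical.

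Proteins bound for the matrix enter the ER while they are made. The signal recognition particle brings the ribosome to the SEC61 channel, and signal peptidase trims the new chain. In the ER, disulfide isomerases fold the chain, and procollagen is hydroxylated on proline and lysine and held by the chaperone HSP47. Cargo leaves in COPII vesicles, escaped ER proteins return in COPI vesicles, and outside the cell procollagen is trimmed and cross-linked by lysyl oxidases. Cartilage and bone cells carry a heavy load of collagen through this route. SEC23A, a COPII coat protein, is required for skull development in humans, and CREB3L2 is known to activate Sec23a in mouse chondrocytes.

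Most of these genes stood lower at day 85, by modest amounts. Levels are given as CPM, read counts scaled to library size by the TMM method. Each gene was tested with edgeR's quasi-likelihood F test, and adjusted p-values are Benjamini-Hochberg values over all genes tested. Of the 72 tested, 60 (83.3%) had a negative log2 fold change of day 85 over day 45, against 48.2% of all genes tested, and the median was -0.35 against 0.019. Only 3 passed at an adjusted p under 0.05 in edgeR, all of them lower: SEC23A, PDIA4 and PCOLCE2. That is 4.17% of the members, near the 2.66% of all genes called lower, and 0 members were called higher against 3.90% of all genes, so the calls alone do not set the list apart. At an unadjusted p under 0.05, 27 members (37.5%) were lower and 3 (4.17%) higher, against 13.3% and 15.8% of all genes. In 27 members (37.5%) every day 85 library lay below every day 45 library, and in 2 (2.78%) above. Over all genes tested these shares were 17.6% and 17.4%. The choice of genes was made with earlier results of these data known, so these counts are descriptions of the list.

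The libraries of day 85 were not alike, and the number of members that passed moved with the libraries included. Total counts ran from 12546729 to 16559616 per library. Day 85 replicate 2 stood apart from the other libraries of its age. It was the highest of the day 85 libraries in 54 of 72 members and replicate 1 the lowest in 54. Replicate 1 lay below all day 45 libraries in 56 members, replicate 3 in 54 and replicate 2 in 32. Without day 85 replicate 2, edgeR called 27 of 73 members lower (37%) and 4 higher (5.48%), against 10% and 12.3% of all genes in that fit. Without any of the other 5 libraries it called 0 members, and few genes of the whole table either, 0 to 25 lower and 0 to 93 higher. In those fits 15.3% to 31.9% of members (11 to 23) were lower at p under 0.05 before adjustment, against 8.66% to 11.6% of all genes. Member calls given below for the fit without day 85 replicate 2 leave out the library most often highest at its age. No member kept such a call when another library was left out instead. DESeq2, run with all 6 libraries, called 27 of 73 lower (37%) and 2 higher (2.74%), against 10.8% and 12.6% of all genes. Between DESeq2 and edgeR without day 85 replicate 2, 19 members were lower in both. These 2 fits share 5 libraries, and the share of all genes lower in both was not computed. With library totals as the only scaling, edgeR called 6 members lower and 0 higher, and over all genes 437 higher and 598 lower in place of 586 and 400.

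**Figure D1:**
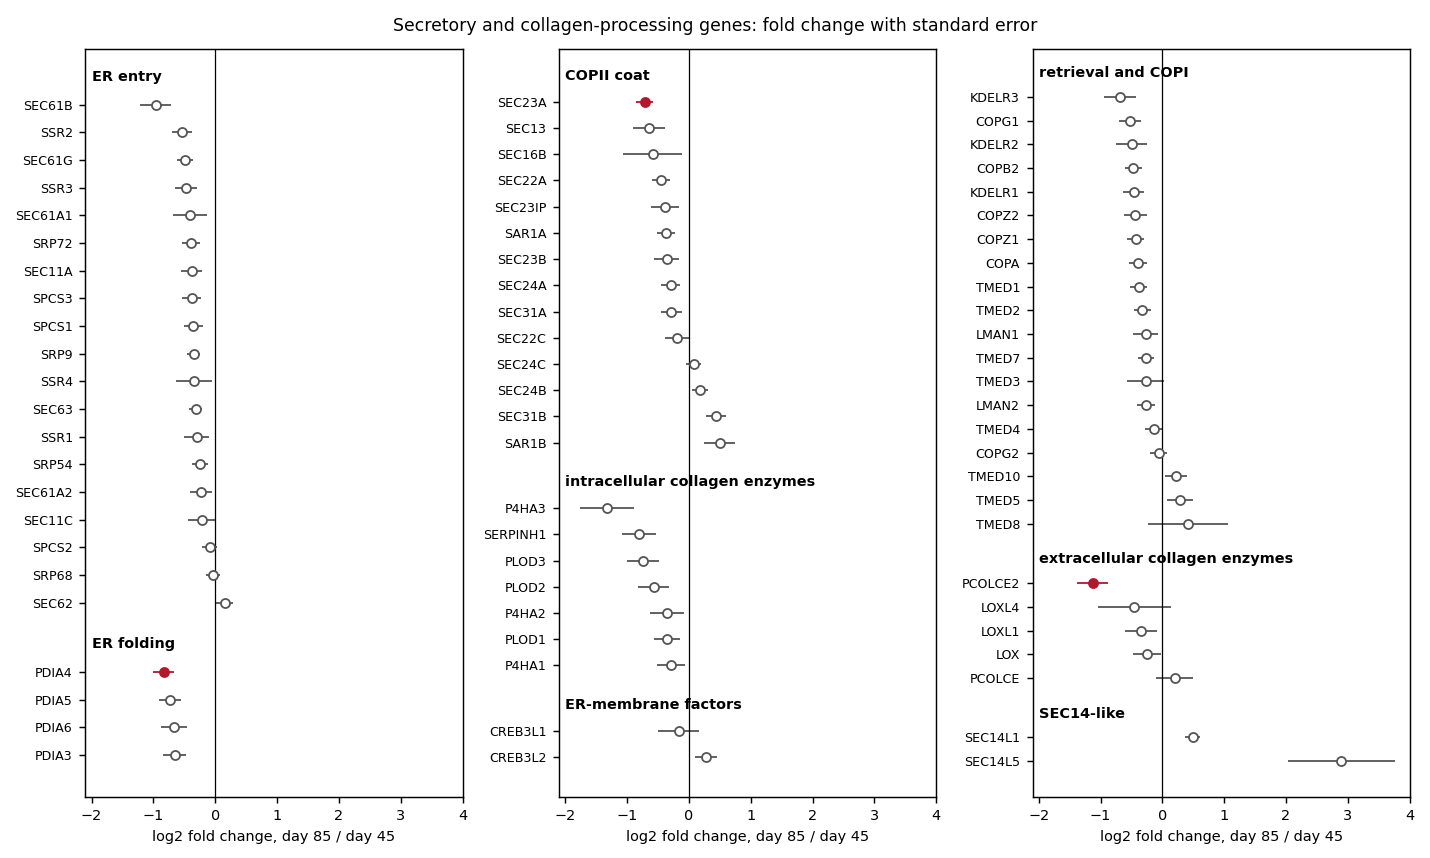
Log2 fold change of day 85 over day 45 (x axis) for each of the 72 tested genes, by role, with its standard error as the bar. Filled red points are the 3 genes past an adjusted p of 0.05, all below 0, and 60 points lie below 0.

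Genes of ER entry pointed down almost as a block, with none past the threshold. Of 19 tested, 18 had values below 0, their median being -0.35. In 7 all day 85 libraries lay below day 45, against 17.6% of all genes. SEC61B, the small beta subunit of the SEC61 channel, had the largest change of them and stood at 246, 232 and 172 CPM across day 45 libraries, against 81.8, 149 and 102 in those of day 85 (log2 fold change -0.96 with SE 0.25, adjusted p = 0.0666). The lowest day 45 library was thus above the highest at day 85. SEC61G, the gamma subunit, stood at 55.7, 72.1 and 68.5 CPM across day 45 libraries, against 44.6, 49.2 and 46.02 in those of day 85 (adjusted p = 0.0722), again without overlap. SEC61A1, which forms the pore, was at 146 ± 11.4 CPM at day 45, against 110.4 ± 42.7 CPM at day 85, and the libraries overlapped (log2 fold change -0.40, adjusted p = 0.369).

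SSR2, a subunit of the translocon-associated TRAP complex, was per length the most abundant gene of this group, with deposited FPKM of 793 ± 96.5 at day 45, against 536 ± 9.67 at day 85. Its normalised counts were 979.5, 901 and 703 CPM across day 45 libraries, against 567, 635 and 578 in those of day 85 (log2 fold change -0.54 with SE 0.16, adjusted p = 0.0925), and every day 85 library lay below day 45. The other TRAP subunits SSR1, SSR3 and SSR4 had log2 fold changes of -0.30, -0.47 and -0.34, and in each the ages overlapped. SSR4 was at 571, 609 and 466 CPM across day 45 libraries, against 257, 582 and 459.6 in those of day 85, where replicate 2 of day 85 matched day 45 and replicate 1 stood far below. Among the signal recognition particle genes, SRP72 and SRP9 did not overlap between ages (log2 fold changes -0.39 and -0.35), whereas SRP54 and SRP68 did (-0.24 and -0.037). The signal peptidase genes SPCS1, SPCS2, SPCS3, SEC11A and SEC11C lay between -0.38 and -0.093. SEC63, which works beside the channel, had -0.31 with separate ages, and its partner SEC62 was the 1 gene of the group with a positive value (0.15). Without day 85 replicate 2, 9 genes of ER entry passed, all lower, SEC61B among them at -1.23 with adjusted p = 0.00756. With another library left out instead, the adjusted p of SEC61B reached 0.193.

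The group of the COPII coat, which buds vesicles from the ER, was divided. The group was assigned by name and also holds genes that are not coat subunits, such as SEC22A, SEC22C, SEC16B and SEC23IP. Of 14 tested genes 10 had values below 0 (median -0.33) and 1 passed. Before adjustment 4 were lower at an edgeR p under 0.05, SEC22A among them, against 13.3% of all genes. SEC23A, an inner coat subunit, fell 1.64-fold, and stood at 161, 148 and 156 CPM across day 45 libraries, against 79.6, 108 and 95.7 in those of day 85 (log2 fold change -0.72 with SE 0.14, adjusted p = 0.0379). Day 45 libraries lay within a narrow band and all day 85 libraries lay well below it, replicate 2 included. The call was kept without day 85 replicate 2 (-0.82 with adjusted p = 0.00795) and lost without each other library, with adjusted p from 0.0725 to 0.148. By the deposited coordinates, for which no genome build was stated in these sources, SEC23A lies on chromosome 7 at 65656356 to 65725975. Its close relative SEC23B stood at 70.8, 62.8 and 58.6 CPM across day 45 libraries, against 40.97, 65.4 and 43.3 in those of day 85 (log2 fold change -0.36 with SE 0.20, adjusted p = 0.277), with day 85 replicate 2 inside the day 45 range.

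SEC13, an outer coat subunit that also sits in the nuclear pore, was per length the most abundant COPII gene in the mean over all libraries, with SEC31A above it at day 85 (mean FPKM 86.3). SEC13 had deposited FPKM of 126 ± 14.3 at day 45, against 78.3 ± 21.9 at day 85. It had 95.3, 86.9 and 69.7 CPM across day 45 libraries, against 37.96, 72.8 and 50.4 in those of day 85 (log2 fold change -0.64, adjusted p = 0.1501), and passed without day 85 replicate 2 at -0.92 with adjusted p = 0.0159. With another library left out instead, the adjusted p of SEC13 reached 0.325. SEC31A, its partner in the outer cage, was at 493, 479.6 and 413 CPM across day 45 libraries, against 304, 442 and 391 in those of day 85 (log2 fold change -0.28, adjusted p = 0.311), with overlap. SAR1A, the GTPase that starts the coat, was at 138, 126 and 141 CPM across day 45 libraries, against 86.9, 118 and 108 in those of day 85, all day 85 libraries below day 45 (log2 fold change -0.37, adjusted p = 0.1497). Of the SEC24 cargo adaptors, SEC24A had -0.29, while SEC24B and SEC24C had 0.18 and 0.076.

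Their relatives SAR1B and SEC31B pointed up. SAR1B, a GTPase known for its need in chylomicron export, stood at 41.4, 36.9 and 38.8 CPM across day 45 libraries, against 75.4, 37.6 and 52.2 in those of day 85 (log2 fold change 0.50 with SE 0.25, adjusted p = 0.2303); replicates 1 and 3 of day 85 were above day 45 and replicate 2 was within it. SEC31B was at 27.3, 23.3 and 21.8 CPM across day 45 libraries, against 35.3, 27.3 and 35.8 in those of day 85, with no overlap (log2 fold change 0.44 with SE 0.16, adjusted p = 0.131). Without day 85 replicate 2 both were called higher, SAR1B at 0.71 with adjusted p = 0.0283 and SEC31B at 0.56 with adjusted p = 0.0352. In that fit 4 genes of the COPII group were called lower, SEC16B among them at adjusted p = 0.0496. Skeletal muscle markers were also high in replicates 1 and 3 and low in replicate 2 of day 85, as given below, and their part in these values was not tested. SAR1B, SEC31B and the other members named here beyond the called ones and the 2 most abundant of each role were picked after their values were seen.

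Genes of retrieval and the COPI coat were low with few exceptions. Of 19 tested, 16 had a negative value, with a median of -0.32, and 0 passed. Before adjustment 7 were lower at an edgeR p under 0.05, against 13.3% of all genes. COPG1, a gamma subunit of the coat, was per length the most abundant of them and stood at 484, 489.8 and 355 CPM across day 45 libraries, against 265, 346 and 309.8 in those of day 85 (log2 fold change -0.53 with SE 0.18, adjusted p = 0.113), without overlap. COPA, COPB2 and COPZ1, other coat subunits, were also below day 45 in every day 85 library, with log2 fold changes of -0.40, -0.47 and -0.43 (adjusted p = 0.129, 0.0849 and 0.103). COPZ2, a second zeta subunit, was at 228, 230.1 and 170.4 CPM across day 45 libraries, against 125, 177 and 162 in those of day 85, where replicate 2 of day 85 overlapped day 45 (log2 fold change -0.44, adjusted p = 0.172). COPG2, the alternative gamma subunit, lay at -0.061.

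The KDEL receptors, which catch escaped ER proteins by their tails, all pointed down. KDELR3 stood at 318, 321 and 235 CPM across day 45 libraries, against 128, 246 and 171 in those of day 85. KDELR1 was at 320.1 ± 36.3 CPM at day 45, against 232 ± 44.9 CPM at day 85. KDELR2 was at 92.4 ± 9.82 CPM at day 45, against 65.3 ± 23.2 CPM at day 85. Their log2 fold changes were -0.68, -0.47 and -0.50 (adjusted p = 0.143, 0.141 and 0.239). In all 3 receptors replicate 2 of day 85 reached into the day 45 range, and without it each was called lower, at -0.96 with adjusted p = 0.0168 for KDELR3, -0.62 with adjusted p = 0.0283 for KDELR1 and -0.81 with adjusted p = 0.01598 for KDELR2. That fit leaves out the overlapping library, so these calls are not a separate test. LMAN1 and LMAN2, lectins that carry glycoproteins, had -0.27 and -0.26. Among TMED genes, whose p24 proteins sort cargo between ER and Golgi, TMED2 was at 381, 395 and 389 CPM across day 45 libraries, against 260.1, 353 and 317 in those of day 85 with no overlap (log2 fold change -0.32, adjusted p = 0.189). TMED10, its usual partner, was at 103, 106 and 125 CPM across day 45 libraries, against 101, 149 and 138 in those of day 85 and overlapped (log2 fold change 0.22, adjusted p = 0.438). TMED1, TMED3, TMED4 and TMED7 lay between -0.39 and -0.14, and TMED5 and TMED8, at under 10 CPM, at 0.28 and 0.41.

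The protein disulfide isomerases separated the ages in all 4 members tested, all lower, against 17.6% of all genes. PDIA4 (ERp72) fell 1.78-fold, and stood at 605, 619.7 and 578 CPM across day 45 libraries, against 267, 391 and 355 in those of day 85 (log2 fold change -0.83 with SE 0.17, adjusted p = 0.03998). PDIA3 (ERp57), which folds glycoproteins with calnexin and calreticulin, was at 624, 651 and 648 CPM across day 45 libraries, against 320.3, 499.8 and 398 in those of day 85 (log2 fold change -0.66 with SE 0.18, adjusted p = 0.0736). PDIA6 was at 578, 627 and 581 CPM across day 45 libraries, against 269, 467 and 392 in those of day 85 (adjusted p = 0.101). PDIA5 was at 86.2, 88.9 and 71.9 CPM across day 45 libraries, against 37.96, 56.8 and 54 in those of day 85 (adjusted p = 0.0605). The log2 fold changes of the 4 genes were close, from -0.83 to -0.66, and the highest day 85 library stayed below the lowest day 45 library in each. Without day 85 replicate 2 all 4 were called lower, PDIA4 at -0.95 with adjusted p = 0.0107; without each other library PDIA4 lost its call, with adjusted p from 0.06602 to 0.149. PDIA4 lies on chromosome 9 at 120198069 to 120217680.

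Enzymes that modify procollagen inside the cell all had negative values, and none of the 7 passed. In 4 of the 7 all day 85 libraries lay below day 45, against 17.6% of all genes, and the median of the 7 was -0.57. SERPINH1, which encodes the collagen chaperone HSP47, was per length the most abundant of all the members, with deposited FPKM of 2888 ± 313 at day 45, against 1602 ± 469 at day 85. Its normalised counts were 2049.8, 1917 and 1513 CPM across day 45 libraries, against 673, 1368 and 1086 in those of day 85 (log2 fold change -0.81 with SE 0.28, adjusted p = 0.118), each day 85 library below day 45. It was called without day 85 replicate 2 (-1.05 with adjusted p = 0.0301), while its adjusted p reached 0.277 with another library left out instead. The lysyl hydroxylases PLOD1, PLOD2 and PLOD3 had log2 fold changes of -0.35, -0.57 and -0.74 (adjusted p = 0.291, 0.184 and 0.123). PLOD1, the most abundant of the 3 per length at an FPKM of 199.5 ± 21.2 at day 45, against 152 ± 28.5 at day 85, was at 675, 849 and 678 CPM across day 45 libraries, against 430.1, 644 and 648 in those of day 85. PLOD3, which also adds sugars to hydroxylysine, was at 130.3, 125 and 128 CPM across day 45 libraries, against 50.02, 106 and 73.3 in those of day 85, with separate ages.

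The prolyl 4-hydroxylase catalytic subunits differed in size of change. P4HA3 was at 188, 253 and 126 CPM across day 45 libraries, against 36.95, 82.8 and 106 in those of day 85, with no overlap and a wide spread (log2 fold change -1.32 with SE 0.43, adjusted p = 0.113). P4HA1 was at 307 ± 24.6 CPM at day 45, against 250.1 ± 74.8 CPM at day 85. P4HA2 was at 402 ± 72.7 CPM at day 45, against 313 ± 106 CPM at day 85. Both overlapped (log2 fold changes -0.29 and -0.36, adjusted p = 0.421 and 0.4199). Without day 85 replicate 2 the chaperone SERPINH1 and the hydroxylases PLOD2 and PLOD3 were called lower. P4HA3 was not called there, at -1.39 with adjusted p = 0.0983.

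Outside the cell the picture was mixed. PCOLCE2, an enhancer of the proteinase that removes the procollagen C-propeptide, fell 2.19-fold, and stood at 71.5, 92.7 and 73.9 CPM across day 45 libraries, against 24.4, 46.5 and 37.9 in those of day 85 (log2 fold change -1.13 with SE 0.25, adjusted p = 0.0458). Every day 85 library was below every day 45 library. The call was kept without day 85 replicate 2 (-1.35 with adjusted p = 0.00928) and lost without each other library, with adjusted p from 0.0684 to 0.148. PCOLCE, an enhancer of the same proteinase, was far more abundant per length, with deposited FPKM of 919 ± 258 at day 45, against 1031 ± 222 at day 85. For PCOLCE2 these were 32.8 ± 3.93 at day 45, against 14.6 ± 3.87 at day 85. PCOLCE stood at 1390.2, 1955 and 1013 CPM across day 45 libraries, against 1345, 2167 and 1477 in those of day 85, with the ages interleaved (log2 fold change 0.20 with SE 0.29, adjusted p = 0.6904). PCOLCE2 lies on chromosome 13 at 91282140 to 91367100.

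The lysyl oxidases, which start collagen and elastin cross-links, did not separate the ages. LOX was at 217, 287 and 246 CPM across day 45 libraries, against 154, 271 and 203 in those of day 85 (log2 fold change -0.26 with SE 0.22, adjusted p = 0.4802). LOXL1 was at 310.5, 421 and 355 CPM across day 45 libraries, against 182, 318 and 356 in those of day 85, with day 85 replicate 1 as the single low library (adjusted p = 0.419). LOXL4 varied within each age, at 576, 499.9 and 154 CPM across day 45 libraries, against 176, 494 and 229 in those of day 85 (adjusted p = 0.643), with day 45 replicate 3 lower than any other library.

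The transcription factors of the route overlapped too. CREB3L1, a factor held in the ER membrane and known from bone, stood at 359.8, 371 and 212 CPM across day 45 libraries, against 194, 407 and 240 in those of day 85 (log2 fold change -0.17 with SE 0.33, adjusted p = 0.7698), highest in replicate 2 of day 85 and low in day 45 replicate 3. CREB3L2 was at 26.6, 28.3 and 31.9 CPM across day 45 libraries, against 27.1, 38.8 and 39.2 in those of day 85 (log2 fold change 0.27 with SE 0.18, adjusted p = 0.3396). The last 2 tested genes share only the name stem: SEC14L1 and SEC14L5 encode SEC14-like lipid-binding proteins. SEC14L1 was higher in every day 85 library, at 115, 116 and 118 CPM across day 45 libraries, against 156, 181 and 152 in those of day 85 (log2 fold change 0.49 with SE 0.12, adjusted p = 0.0545). SEC14L5 was at 1.47, 2.16 and 1.05 CPM across day 45 libraries, against 15.6, 1.6 and 17.6 in those of day 85 (log2 fold change 2.89 with SE 0.87, adjusted p = 0.0952), high in day 85 replicates 1 and 3 and at the day 45 level in replicate 2. Muscle markers had the same high and low libraries at day 85, and their part in the SEC14L5 values was not tested. Without day 85 replicate 2, both were called higher, SEC14L1 at 0.41 with adjusted p = 0.0341 and SEC14L5 at 3.42 with adjusted p = 0.00149, and DESeq2 on all libraries called both.

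**Figure D2:**
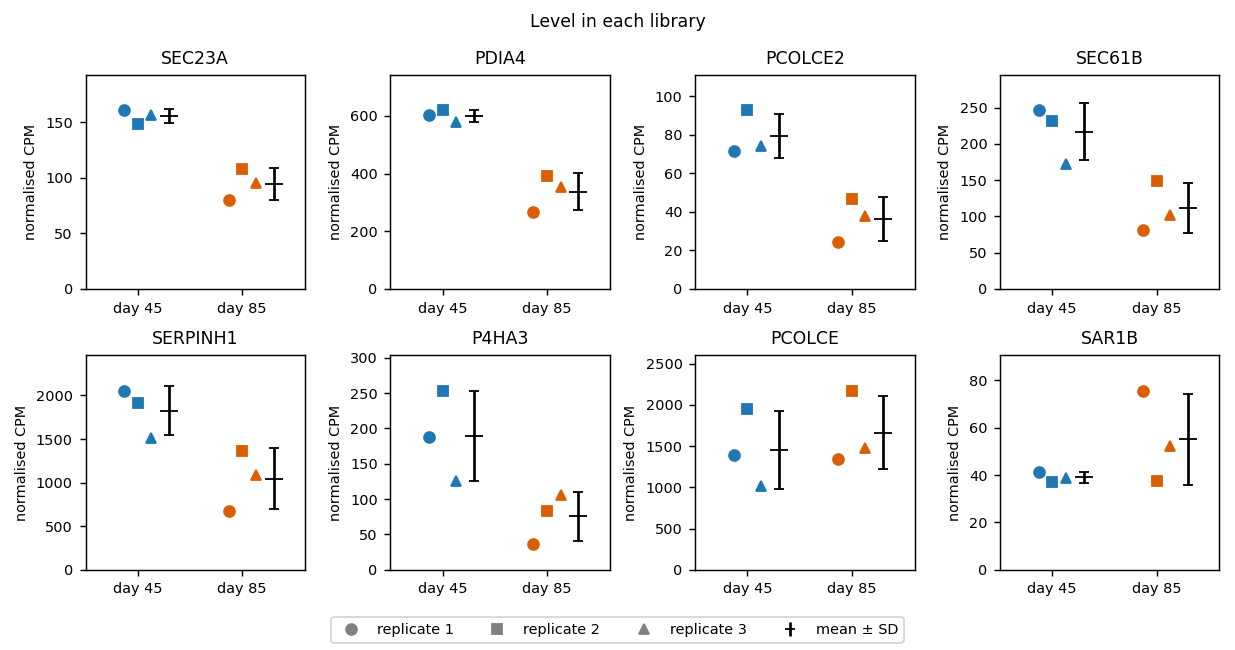
Normalised CPM (y axis, from 0) in each library of day 45 (blue) and day 85 (orange) for 8 genes, with the mean and SD of 3 libraries in black. SEC23A, PDIA4, PCOLCE2, SEC61B, SERPINH1 and P4HA3 have all day 85 points below day 45; PCOLCE and SAR1B overlap.

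Related genes can be set against each other as a ratio of counts in the same library, which does not depend on the scaling between libraries. For 26 pairs of related members, 9 ratios (34.6%) did not overlap between ages. Of all single genes, 35.03% did not overlap in either direction, but that share is of normalised levels and not of ratios. No share over other gene pairs was computed, and some genes enter several of the 26 pairs. An exact two-sided permutation test on 3 against 3 libraries cannot go below 0.1, and these 9 reached it, with an adjusted p of 0.289 over the 26 pairs, so none can pass. The ratio of PCOLCE to PCOLCE2 counts was 19.4, 21.1 and 13.7 across day 45 libraries, against 55.2, 46.6 and 38.97 in the older ones, 2.61 times larger at day 85 by the means of the logs. The ratio of P4HA1 to P4HA3 was 1.78, 1.15 and 2.33 across day 45 libraries, against 4.71, 3.905 and 2.38 in the older ones, and that of P4HA2 to P4HA3 was 2.52, 1.59 and 2.61 across day 45 libraries, against 5.52, 5.03 and 2.995 in the older ones. In both, every day 85 ratio lay above every day 45 ratio, for P4HA1 to P4HA3 only just (2.38 against 2.33).

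Within the COPII coat, the ratio of SAR1A to SAR1B was 3.33, 3.41 and 3.64 across day 45 libraries, against 1.15, 3.15 and 2.06 in the older ones, and that of SEC31A to SEC31B was 18.1, 20.6 and 18.9 across day 45 libraries, against 8.61, 16.2 and 10.9 in the older ones. In each the day 85 libraries lay lower, replicate 1 most and replicate 2 least. The ratio of SEC23A to SEC23B was 2.27, 2.37 and 2.67 across day 45 libraries, against 1.94, 1.65 and 2.21 in the older ones, and here replicate 2 of day 85 had the lowest value. The ratio of SEC24A to SEC24C also separated the ages, at 0.462, 0.4799 and 0.535 across day 45 libraries, against 0.3398, 0.453 and 0.352 in the older ones. Small but separate shifts were seen for KDELR2 to KDELR3 (0.313, 0.3005 and 0.346 across day 45 libraries, against 0.355, 0.368 and 0.3499 in the older ones) and for PLOD2 to PLOD3 (1.61, 1.55 and 1.43 across day 45 libraries, against 1.83, 1.72 and 1.66 in the older ones). The other 17 pairs overlapped, among them LOX to LOXL1, COPZ1 to COPZ2 and CREB3L1 to CREB3L2.

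Among the 74 genes, 5 pairs lay within 500 kb of each other in the deposited coordinates. SAR1B, on chromosome 2 at 142463692 to 142489104, and SEC24A, on chromosome 2 at 142498900 to 142565796, are separated by 9.80 kb and had log2 fold changes of 0.50 and -0.29. SEC22A, counted above in the COPII group, and PDIA5 on chromosome 13, 102.5 kb apart, had -0.45 and -0.73. LMAN1 and SEC11C on chromosome 1, 177 kb apart, had -0.27 and -0.22, and COPG1 and SEC61A1 on chromosome 13, 316 kb apart, had -0.53 and -0.40. In the last pair of neighbours, LMAN2 and TMED9, the latter was not tested. So 3 of 4 tested pairs had both values below 0, as most members did, and SAR1B and SEC24A, the closest pair, had opposite signs.

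The mix of tissues in the condyle libraries also differed between ages. In bulk tissue, fewer cells of a type and less RNA per cell cannot be told apart. Summed normalised counts of 9 cartilage markers (of 11 listed) ran from 11516 to 14717 CPM at day 45 and were 944, 4596 and 1881 CPM at day 85. Those of 6 skeletal muscle markers (of 9 listed) ran from 925 to 2478 CPM and were then 18572, 1518 and 15601 CPM, while TTN and NEB never passed 3.48 CPM. Those of 6 osteoclast markers (of 7) ran from 281 to 1265 CPM and were then 1829.6, 13146 and 2259 CPM. Those of 8 markers of bone-forming cells ran from 2955 to 7664 CPM and were then 7065, 19104 and 6382 CPM, with MEPE at 1.08 CPM at most. The bone markers did not move as a set. Of 7 tested, 5 had positive log2 fold changes, among them SPP1 at 2.06 and IBSP at 0.07. The other 2 were negative, RUNX2 at -0.60 and SP7 at -0.42. The part of these shifts in the values of the secretory genes was not tested.

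Sums over the members moved far less than those marker sums. All 74 genes together took 17212, 17822 and 14362 CPM across day 45 libraries, against 9959.8, 15341 and 12504 in those of day 85, so that replicate 2 of day 85 lay within the day 45 range. The ER entry genes summed to 3419, 3344 and 2824 CPM across day 45 libraries, against 2053, 2821 and 2355 in those of day 85, and the isomerases to 1892, 1987 and 1878 CPM across day 45 libraries, against 894, 1415 and 1198 in those of day 85, where replicate 2 of day 85 lay below day 45. In that library the muscle markers were within the day 45 range, the cartilage markers below it and the osteoclast and bone-forming markers above it. Their part in the isomerase values was not tested. The intracellular collagen enzymes summed to 4061, 4034 and 3248 CPM across day 45 libraries, against 1659, 3124 and 2607 in those of day 85. The extracellular enzymes, most of whose counts are PCOLCE, summed to 2565, 3256 and 1843 CPM across day 45 libraries, against 1882, 3297 and 2303 in those of day 85 and overlapped.

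**Figure D3:**
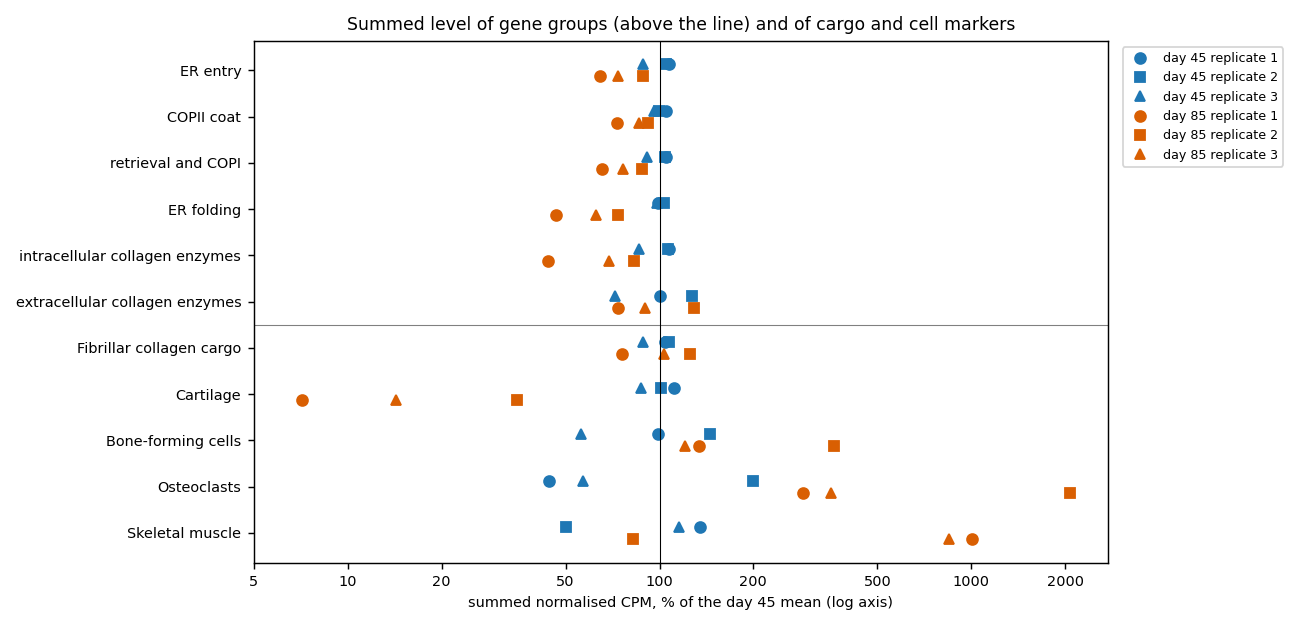
Summed normalised counts of each gene group in each library, as a percentage of the day 45 mean (x axis, logarithmic), for members by role above the line and for fibrillar collagens and cell markers below it. The 6 groups of members shown stay between 43.9% and 129% of the day 45 mean in the day 85 libraries, while cartilage markers lie between 7.15% and 34.8% and the muscle markers of replicates 1 and 3 at 1008% and 846% of it.

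The members were also set against their collagen cargo, a ratio added after values had been seen. The counts of 9 fibrillar collagen genes (of 11 listed; COL1A1 and COL24A1 are not analysed here), of which COL1A2 and COL3A1 hold the most, summed to 84272, 87013 and 71807 CPM across day 45 libraries, against 61420.3, 101382 and 83654 in those of day 85. Per 1000 counts of these collagens in the same library, the 74 members had 204, 205 and 200 across day 45 libraries, against 162, 151 and 149 in the older ones. The day 45 values lay close together, and every day 85 library, replicate 2 included, was lower. The ratio of the mean at day 45 to that at day 85 was 1.32. The collagen sum of day 85 replicate 2 was the highest of all libraries, at 125% of the day 45 mean. A larger sum lowers every ratio in that library. P4HA1 and P4HA2, whose normalised counts overlapped between ages, did not overlap on this scale. The share of all genes that separate the ages on this scale was not computed, so these separations do not set the list apart. On this scale the isomerases had 22.5, 22.8 and 26.2 across day 45 libraries, against 14.6, 13.95 and 14.3 in the older ones. The intracellular collagen enzymes had 48.2, 46.4 and 45.2 across day 45 libraries, against 27.02, 30.8 and 31.2 in the older ones. Neither overlapped.

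Per 1000 collagen counts, SERPINH1 alone had 24.3, 22.03 and 21.1 across day 45 libraries, against 10.96, 13.5 and 12.98 in the older ones. SEC23A had 1.91, 1.71 and 2.18 across day 45 libraries, against 1.296, 1.06 and 1.14 in the older ones. The ER entry genes also separated the ages, at 40.6, 38.4 and 39.3 across day 45 libraries, against 33.4, 27.8 and 28.2 in the older ones, as did those of retrieval and COPI. The COPII coat (15.5, 14.3 and 16.7 across day 45 libraries, against 14.8, 11.3 and 12.8 in the older ones) overlapped, as did the extracellular enzymes (30.4, 37.4 and 25.7 across day 45 libraries, against 30.6, 32.5 and 27.5 in the older ones). Each ratio without overlap had an exact two-sided permutation p of 0.1, the smallest that 3 against 3 libraries allow, and an adjusted p of 0.131 over 21 ratios. The denominator itself differed in makeup: COL1A2 was at 38328, 42227 and 28985 CPM across day 45 libraries, against 39985, 64395 and 46978 in those of day 85 (adjusted p = 0.276). COL3A1 was at 25453, 24135 and 25497 CPM across day 45 libraries, against 14792, 22704 and 26445 in those of day 85. COL2A1 was at 4999, 4107 and 3733 CPM across day 45 libraries, against 28.8, 1074 and 50.6 in those of day 85 (adjusted p = 0.168).

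**Figure D4:**
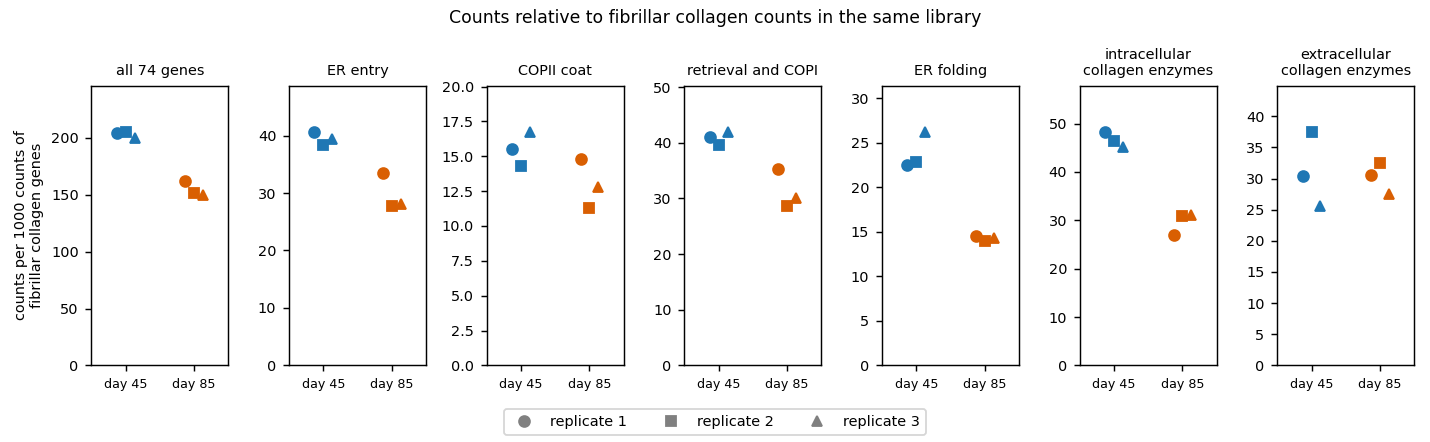
Counts of each gene group per 1000 counts of 9 fibrillar collagen genes in the same library (y axes, each from 0), by age, with a marker shape per replicate. For all 74 genes the day 45 libraries lie at 200 to 205 and the day 85 libraries at 149 to 162; the COPII and extracellular groups overlap.

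Other genes of the pathway, from lists written by role, were read in the same fit. Their counts stand against the 2.66% of all genes called lower, the 3.90% called higher and the 48.2% with negative values. Among 20 ER chaperones and oxidation genes tested, 2 passed, both lower, 16 had negative values and the median was -0.42. HSP90B1 (GRP94), a chaperone of the ER lumen, fell 1.76-fold, and stood at 702, 709 and 750.4 CPM across day 45 libraries, against 319, 478 and 432 in those of day 85 (adjusted p = 0.0449), and DNAJC10, a reductase that acts on misfolded chains, fell 1.45-fold (adjusted p = 0.0374). Both calls were lost without each library other than day 85 replicate 2, with adjusted p from 0.07096 to 0.1602 for HSP90B1 and from 0.0892 to 0.145 for DNAJC10. Calreticulin, CALR, the most abundant of the list by FPKM, was at 1111, 1117 and 1154 CPM across day 45 libraries, against 565, 847 and 745 in those of day 85, with no overlap (adjusted p = 0.0736). HSPA5 (BiP) was at 477 ± 12.7 CPM at day 45, against 315 ± 63.6 CPM at day 85 (log2 fold change -0.60, adjusted p = 0.0809).

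Of 15 genes of the unfolded protein response, 0 passed in edgeR, and the median was -0.08. Before adjustment (p under 0.05) 1 was higher and 1 lower, against 15.8% and 13.3% of all genes. ATF4, by FPKM the most abundant of them and the factor translated under ER stress, was at 511, 537 and 396 CPM across day 45 libraries, against 513, 507 and 471 in those of day 85 (log2 fold change 0.046 with SE 0.15, adjusted p = 0.867). XBP1, whose spliced form drives secretory genes, was at 114, 121 and 90.4 CPM across day 45 libraries, against 69.1, 88.9 and 79.4 in those of day 85, below day 45 in every day 85 library (adjusted p = 0.1201).

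Among 14 other collagen-modifying genes, 2 passed, both lower, 11 had negative values, and the median was -0.70. COLGALT2, which adds galactose to hydroxylysine, fell 2.65-fold, and stood at 49.8, 46.5 and 43.6 CPM across day 45 libraries, against 19.7, 17.5 and 15.5 in those of day 85 (log2 fold change -1.41 with SE 0.14, adjusted p = 0.016), with a tight day 85 group. It kept its call without each day 85 library and lost it without each day 45 library, with adjusted p from 0.0518 to 0.106. FKBP14, a proline isomerase of the ER, fell 1.75-fold (adjusted p = 0.0472), and its call was lost without each library other than day 85 replicate 2 (adjusted p from 0.0877 to 0.165). The subunits of the prolyl 3-hydroxylation complex P3H1 and CRTAP had log2 fold changes of -0.68 and -0.75 (adjusted p = 0.145 and 0.0547), both without overlap. SPARC, a collagen-binding protein and by FPKM the most abundant of the list, pointed the other way, at 3115, 3657 and 2479 CPM across day 45 libraries, against 3426, 5871 and 4446 in those of day 85 (log2 fold change 0.57, adjusted p = 0.188).

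Of 19 other export genes, ERGIC2 and YIPF5, proteins of the compartment between ER and Golgi, fell 1.42-fold and 1.51-fold (adjusted p = 0.0447 and 0.0372), and 0 were called higher. Both lost the call without each library other than day 85 replicate 2, with adjusted p from 0.0887 to 0.1704 and from 0.07001 to 0.147. ARF4, a GTPase of COPI budding and by FPKM the most abundant of the list, was at 584, 529 and 485 CPM across day 45 libraries, against 275, 394 and 308 in those of day 85 (adjusted p = 0.0569). MIA3 (TANGO1), which loads procollagen into COPII carriers, was at 133, 141 and 113 CPM across day 45 libraries, against 101, 120.3 and 108 in those of day 85 and overlapped (adjusted p = 0.292). KLHL12, which enlarges COPII vesicles for collagen, was higher in all day 85 libraries, at 29.8, 31.9 and 33.04 CPM across day 45 libraries, against 40.97, 38.6 and 51.2 in those of day 85 (adjusted p = 0.0939).

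Of 15 procollagen proteinases and fibril partners, 0 passed in edgeR. Before adjustment (p under 0.05) 1 was higher and 2 lower, against 15.8% and 13.3% of all genes. BMP1, the proteinase that PCOLCE and PCOLCE2 enhance, was at 336, 429 and 315 CPM across day 45 libraries, against 320.3, 478 and 343 in those of day 85 (log2 fold change 0.08 with SE 0.20, adjusted p = 0.819), and ADAMTS2, which removes the N-propeptide, had 0.22 (adjusted p = 0.602). Decorin, DCN, the most abundant of the list by FPKM, had -0.24 (adjusted p = 0.4404). Among the 9 fibrillar collagens, COL5A3 rose 1.99-fold (adjusted p = 0.0458), while COL11A1 and COL27A1 fell 2.602-fold and 2.44-fold (adjusted p = 0.0458 and 0.0473). These calls too were lost without each library other than day 85 replicate 2, with adjusted p from 0.0883 to 0.155 for COL5A3, 0.0589 to 0.163 for COL11A1 and 0.0557 to 0.161 for COL27A1. The call of COL5A3 was lost with upper-quartile scaling, library totals, limma-trend and the replicate block too, at adjusted p of 0.0507, 0.0559, 0.0513 and 0.0747.

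**Figure D5:**
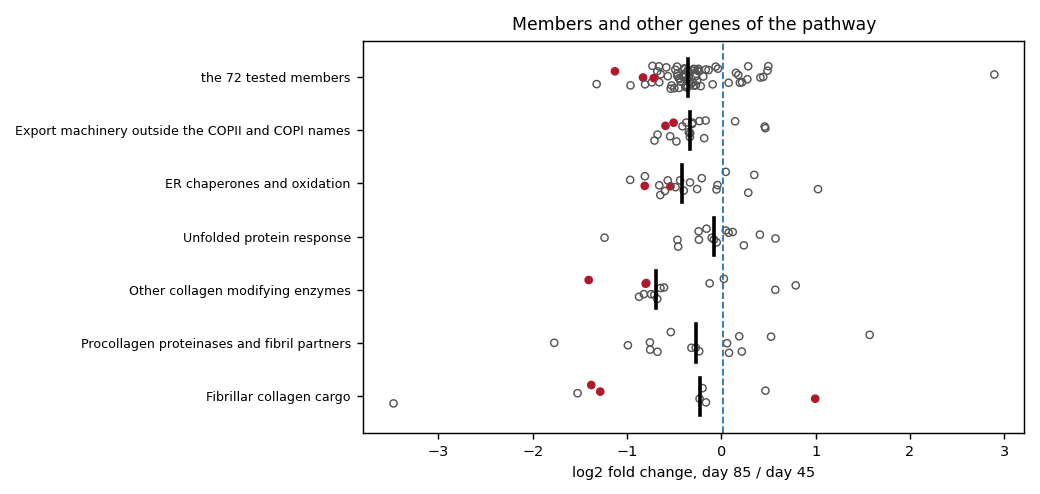
Log2 fold change of day 85 over day 45 (x axis) for the 72 tested members and for 6 lists of other genes of the pathway; each point is a gene, filled red where the adjusted p is under 0.05, black bars are medians and the dashed line is the median of all tested genes, 0.019. The bars lie between -0.70 and -0.080, and 1 red point, COL5A3, lies above 0.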

How the data were processed

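RNA of 6 ground condyle samples was depleted of ribosomal RNA, and the second cDNA strand was degraded, per the labels' protocols. The submitters' processing notes name HISAT2, without a version. Genome build, annotation, and how reads were counted or assigned to a strand are not given in these sources, so overlapping and antisense genes may share reads. The authors deposited raw read counts per gene and FPKM values side by side, per the file headers. For 10748 genes with at least 50 counts in every library, FPKM equalled the count over the library total and 1 factor per gene to within 0.00123%, so FPKM served to compare genes per length and, as log2(FPKM + 1), for 1 alternative test with limma-trend.

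Groups follow the age in the sample titles. Counts were tested in edgeR 4.0.16 (R 4.3.3) over all genes: filterByExpr with a minimum count of 10, TMM scaling, robust dispersions and the quasi-likelihood F test, with Benjamini-Hochberg adjustment over all 15022 genes and a threshold of 0.05. Levels are TMM-normalised CPM, given as mean ± SD over n = 3 libraries, and SE is the log2 fold change over the square root of F. Alternatives were other scalings and filters, DESeq2 1.42.0, limma 3.58.1, a replicate block and each library left out. No pair of libraries was a duplicate (chi-square per degree of freedom at least 20.2).

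The members and lists were chosen with earlier results of these data known. Genes named are the called members, the 2 most abundant per role by FPKM, SEC23A and PCOLCE2, and from each pathway list the called genes and the most abundant; others were picked after their values were seen. Of 110 pathway list entries, 93 matched a row. The plasma cell, epithelium, endothelium, red cell, macrophage, tendon and hypertrophic cartilage marker lists were measured too, with sums in the closing section.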

Additional observations from a re-analysis of the deposited data

How the results depend on the processing

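The median log2 fold change of the secretory genes stayed negative under every alternative run, from -0.40 to -0.35 across scalings, filters, tests and the block, and from -0.49 to -0.25 with each library left out. The counts of called members were less stable. Against 3 lower and 0 higher, RLE scaling gave 1 higher (SEC14L1), library totals 6 lower, limma-trend on log2(FPKM + 1) 7 lower, and DESeq2 27 lower and 2 higher. Calls over all genes moved too. Lower calls were 400 in the main fit, 447 with RLE, 598 with library totals, 614 with limma-trend and 1770 with DESeq2. Higher calls were 586, 603, 437, 442 and 2064 in the same order. By the labels, same-numbered libraries share only a number. Their deviations from the group means correlated at 0.035, 0.302 and 0.103 for replicates 1, 2 and 3. The value of replicate 2 was the highest of all pairs across ages. Day 45 replicate 3 correlated best with day 85 replicate 1, at 0.285. Whether the replicate 2 libraries share anything further was not tested. With the replicate block 1 member was lower, PCOLCE2, and SEC23A and PDIA4 had adjusted p = 0.0609 and 0.0570. Over all genes the block gave 217 lower and 465 higher. Of the called pathway genes, the block also ended the calls of HSP90B1, DNAJC10, ERGIC2, YIPF5, FKBP14, COL5A3, COL11A1 and COL27A1, at adjusted p of 0.0591, 0.0604, 0.0675, 0.0565, 0.0656, 0.0747, 0.0576 and 0.0511, and COLGALT2 kept its call. Leaving out each library in turn gave 0 to 27 lower and 0 to 4 higher, with all calls in the fit without day 85 replicate 2. Over the 34 named genes, leaving out libraries changed the sign of 3 that were not called: CREB3L1 ranged from -0.53 to 0.013, PCOLCE from -0.039 to 0.47 and ATF4 from -0.080 to 0.13. The other scalings, filters, tests and the block changed no sign, ended 13 calls and added 23. The cause of these differences was not tested. One count is worth less than 0.1 CPM. Depth limits most the genes near or below 1 CPM, such as TMED8 and TMED9. Counts were also few for SEC16B (21 to 104 per library), TMED3 (25 to 67) and SEC14L5 at day 45 (16 to 30).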

Other observations

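Marker sums of other tissues, in normalised CPM, complete the picture of the libraries. Tendon and fibrous tissue markers (4 of 5 listed) summed to 1753, 2659.8 and 1827 CPM across day 45 libraries, against 509.6, 1139 and 1188 in those of day 85, endothelial markers (3 of 4) to 279, 202 and 400.1 CPM across day 45 libraries, against 1125, 675 and 833 in those of day 85 and macrophage markers (5 of 5) to 48.2, 107 and 73.5 CPM across day 45 libraries, against 224, 672 and 193 in those of day 85. Red cell markers (3 of 4) summed to 808, 723 and 428 CPM across day 45 libraries, against 1256, 2441 and 588 in those of day 85. The hypertrophic cartilage genes COL10A1 and IHH summed to 378, 489 and 162 CPM across day 45 libraries, against 2.32, 490.4 and 4.02 in those of day 85. In day 85 replicate 2 most of this was COL10A1, at 466 CPM. IHH was at 24.6 CPM there, below its day 45 range of 68.4 to 155 CPM. Plasma cell markers, which mark a cell type with a large ER, stayed at 3.18, 3.89 and 3.402 CPM across day 45 libraries, against 7.03, 2.8 and 4.81 in those of day 85 over 2 of 3 genes, and epithelial markers at 15.98, 5.27 and 11.4 CPM across day 45 libraries, against 1.62, 11.2 and 9.82 in those of day 85 over 4 of 4.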
